A study of Mus musculus with 14 samples.

Results

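Replication-dependent histone genes encode the proteins that package newly copied DNA. H2A, H2B, H3 and H4 form the core around which DNA is wrapped, and H1 binds the linker between cores. These genes lie in clusters of near-identical copies that are switched on together when a cell enters S phase, under the coordination of NPAT. Most of their mRNAs end in a stem-loop bound by SLBP in place of a poly(A) tail, and they are degraded when DNA synthesis stops. Microglia, the resident macrophages of the brain, seldom divide in the healthy adult and can proliferate after injury. The genes described here were those whose array row carried a single symbol starting with Hist1h, Hist2h, Hist3h or Hist4h, or with H1f, H2ac, H2bc, H3c or H4c and a number, and they numbered 30 of the 19938 genes measured. There were 8 linker H1 genes, 4 H2A genes, 9 H2B genes, 3 H3 genes and 6 H4 genes, of which 23 lay on chromosome 13, 4 on chromosome 3, 2 on chromosome 6 and 1 on chromosome 15. The symbols also took in 6 genes that are not classical S-phase histone genes: H1f10, the oocyte gene H1f8, and the testis genes H1f6, H1f7, H2ac1 and H2bc1. A further 26 array rows named several histone genes at once and are described separately, because their probes cannot be assigned to 1 gene.

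The arrays measured RNA of microglia sorted from the cortex on the operated side of C57BL/6J mice, all male and 12 to 14 weeks old. Surgery was a 15 min filament occlusion of the middle cerebral artery with 72 h of reperfusion, or a sham operation. The 4 groups were TLR4-/- mice after ischaemia and reperfusion (I/R, arrays B, C and D), sham-operated TLR4-/- mice (arrays A, B and D), wild-type mice after I/R (arrays A to D) and sham-operated wild-type mice (arrays A to D). TLR4 senses bacterial lipopolysaccharide and molecules set free by tissue damage, and the design asks how I/R changes microglial transcripts and what the receptor adds to that change. The titles of the I/R samples carry a term, IPC, whose meaning is not given, and neither are the sort markers and the construction of the TLR4-/- allele, in the sources used here. The labels do not state that each array came from a separate animal, so the spread behind each p-value is that between samples and may be technical.

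Each value is the log2 signal of a row, and the 95th percentile of 1027 olfactory receptor genes, 4.67, stood in for background. Of the 30 members, 22 had a mean over all arrays above it. Arrays of a group correlated at r between 0.981 and 0.993 across genes. Wild-type sham array C correlated at 0.987 to 0.992 with TLR4-/- sham arrays and at 0.981 to 0.986 with its own group. TLR4-/- I/R array D correlated at 0.990 to 0.992 with wild-type I/R arrays and at 0.985 to 0.990 with its own group. The Tlr4 row read 7.62 to 8.47 in TLR4-/- arrays and 8.14 to 8.92 in wild-type arrays, which checks no label because the deleted part of the gene is not given. Of 11 microglia markers measured, all were above background, and their mean per array was 10.9 to 11.0 in TLR4-/- I/R, 11.3 to 11.4 in TLR4-/- sham, 10.9 to 11.1 in wild-type I/R and 11.3 to 11.4 in wild-type sham arrays.

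The stretches just before the annotated starts of these genes are shown because the histone classes carry different short promoter elements. RefSeq sequence of build GRCm38.p6 was at hand for 26 of the 30 members, and a window of 250 bases before the start was searched on both strands for 5 motifs. The octamer ATTTGCAT (reverse ATGCAAAT), the known OCT1 element of H2B promoters, was in 8 of 26 members (30.8%) and in 1.6% of all 32851 promoters. It was in 3 of 4 H2A and 5 of 7 H2B windows, and in none of those of H1, H3 and H4. The following H2B stretches of 120 bases end at the base before the start, with matches to the searched motifs in capitals. They were chosen because they hold the octamer in full and include H2bc8, which did not pass the test for I/R in either genotype. They are H2bc14 at chr13:21721924-21722043 (plus strand), H2bc18 at chr3:96269580-96269699 (plus strand), H2bc3 at chr13:23746614-23746733 (plus strand) and H2bc8 at chr13:23571280-23571399 (plus strand).
H2bc14: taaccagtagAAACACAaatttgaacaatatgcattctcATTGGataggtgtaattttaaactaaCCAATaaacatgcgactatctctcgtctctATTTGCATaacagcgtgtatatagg
H2bc18: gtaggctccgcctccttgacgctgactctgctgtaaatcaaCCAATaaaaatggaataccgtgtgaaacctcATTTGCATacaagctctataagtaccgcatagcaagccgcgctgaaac
H2bc3: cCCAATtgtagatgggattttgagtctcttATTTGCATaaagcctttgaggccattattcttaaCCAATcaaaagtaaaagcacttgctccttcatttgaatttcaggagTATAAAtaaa
H2bc8: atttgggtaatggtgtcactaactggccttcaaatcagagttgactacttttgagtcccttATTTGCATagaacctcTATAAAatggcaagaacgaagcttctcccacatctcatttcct

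The element GGTCCG (reverse CGGACC), found in H4 promoters, was in 4 of 5 H4 windows, each time at position -47 or -46 counted from the start. The window of H4c8 ends in the letters GGTCC, so a match reaching past its annotated start would not be counted. It was in 6 of 26 members (23.1%) and in 6.72% of all promoters. This motif and the H1 element were added to the search after the stretches had been read, so their shares in members describe what was seen. The H4 stretches with the element are H4c4 at chr13:23581448-23581567 (plus strand), H4c6 at chr13:23551669-23551788 (minus strand), H4c3 at chr13:23698459-23698578 (minus strand) and H4c9 at chr13:22041363-22041482 (minus strand), again with matches in capitals.
H4c4: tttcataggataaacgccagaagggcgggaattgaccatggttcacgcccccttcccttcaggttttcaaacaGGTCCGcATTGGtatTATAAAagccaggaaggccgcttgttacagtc
H4c6: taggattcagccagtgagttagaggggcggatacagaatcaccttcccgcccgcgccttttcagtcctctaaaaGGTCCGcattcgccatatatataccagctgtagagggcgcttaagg
H4c3: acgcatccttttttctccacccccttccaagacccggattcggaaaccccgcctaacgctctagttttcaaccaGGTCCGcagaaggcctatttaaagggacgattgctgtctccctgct
H4c9: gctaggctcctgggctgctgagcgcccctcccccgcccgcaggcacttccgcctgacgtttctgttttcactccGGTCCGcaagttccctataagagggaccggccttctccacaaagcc

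The H1 element AAACACA (reverse TGTGTTT) was in 8 of 26 members (30.8%) and in 6.25% of all promoters. It was in 4 of 8 H1 windows, where it lay at positions -122 to -112. It was also in 2 of 4 H2A and 2 of 7 H2B windows, and in none of those of H3 and H4. H2ac1 and H2bc1 share 1 site, so the 8 members hold 7 sites. Stretches of H1f5, whose transcript rose after I/R, and H1f2, whose transcript did not pass the test, both hold the element. They are H1f5 at chr13:21780626-21780745 (minus strand) and H1f2 at chr13:23738687-23738806 (plus strand).
H1f5: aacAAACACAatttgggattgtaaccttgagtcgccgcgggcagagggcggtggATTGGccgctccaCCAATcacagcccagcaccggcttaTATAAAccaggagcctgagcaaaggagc
H1f2: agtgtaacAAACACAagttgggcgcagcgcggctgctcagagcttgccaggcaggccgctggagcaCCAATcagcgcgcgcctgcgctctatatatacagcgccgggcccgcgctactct

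More general promoter elements were common as well: TATAAA (reverse TTTATA) was in 14 of 26 members (53.8%) against 12.4% of all promoters, and CCAAT (reverse ATTGG) was in 20 of 26 (76.9%) against 33.8%. H2ac1 and H2bc1 are transcribed away from each other, and their promoter entries overlapped by 220 bases, and those of H2ac8 and H2bc8 by 279. A promoter entry runs from 250 bases before the start into the gene. Each of these pairs shares 1 octamer site, which was counted for both genes, so the 8 members hold 6 sites. A match describes letters and not a bound site. The map of motif positions shows the octamer in H2A and H2B rows and the H4 element at 1 place in H4 rows.

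**Figure D1:**
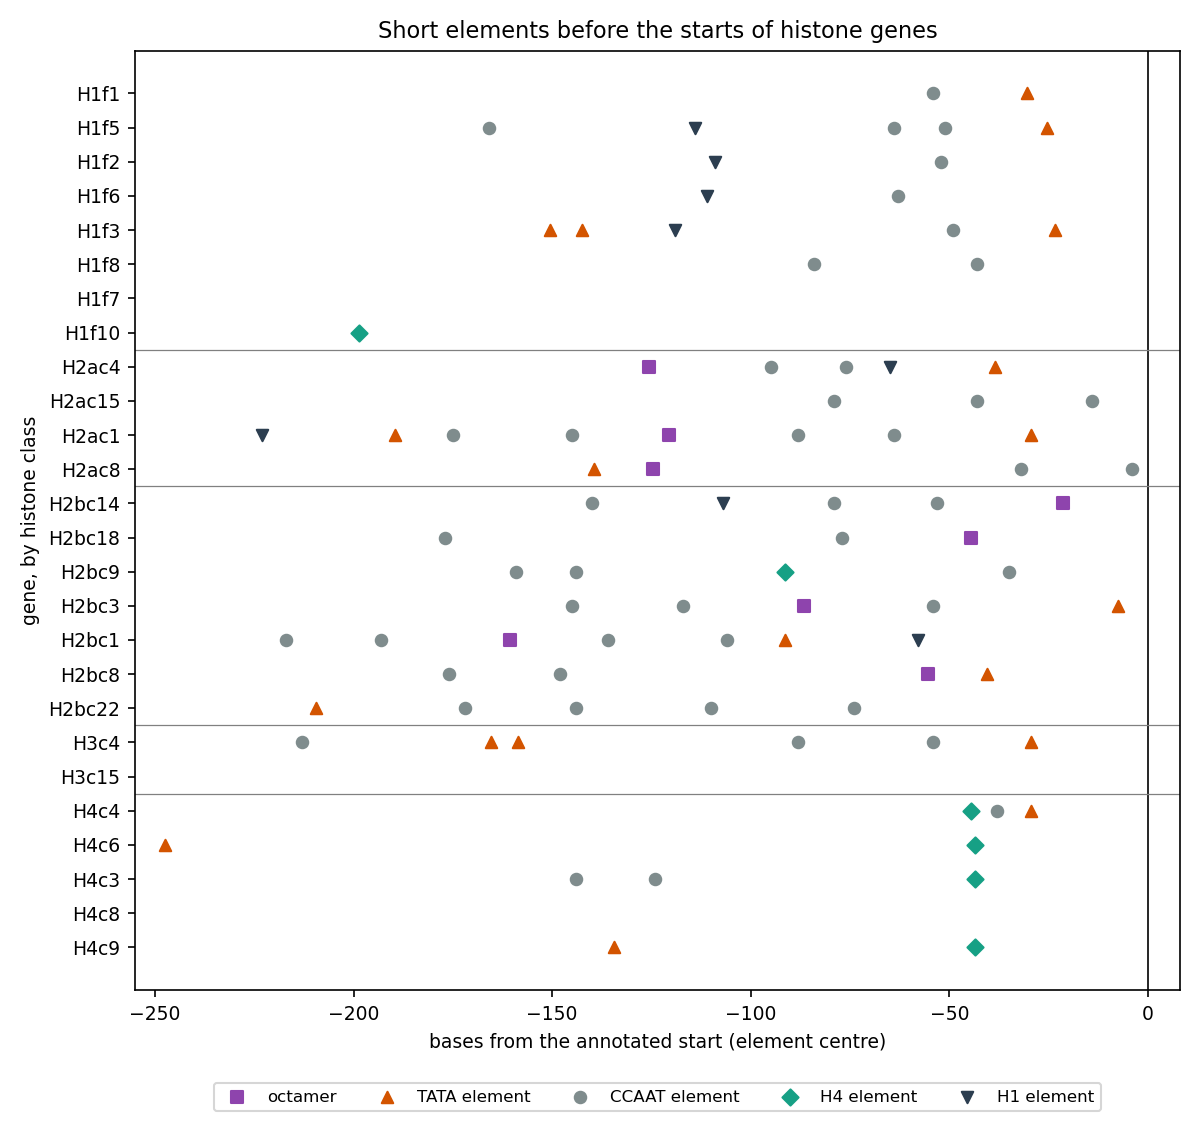
Position of each motif match (centre, in bases from the annotated start, either strand) in the 250 bases before the start of the 26 members with a sequence, grouped by histone class. The octamer (squares) lies in 3 H2A and 5 H2B genes, and the H4 element (diamonds) sits close to the start in 4 of 5 H4 genes.

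After I/R, histone transcripts were called higher in each genotype, and none was called lower in either. In TLR4-/- microglia 12 of the 30 members rose (limma, adjusted p under 0.05 over all genes), where 5.04% of all genes were called higher and 8.17% in either direction. In wild type 15 of 30 rose, against a background of 6.15% higher and 9.78% in either direction. Among all genes the share called lower was 3.13% in TLR4-/- and 3.63% in wild type, while 18 members in TLR4-/- and 20 in wild type had an unadjusted limma p under 0.05 in either direction, which held for 20.3% and 22.6% of all genes. The median log2 change of the members was 0.63 in TLR4-/- and 0.57 in wild type, while over all genes it was -0.03 and -0.06. The change was above 0 in 28 of 30 members in TLR4-/- and in 24 of 30 in wild type. Among all 19938 genes it was above 0 in 8733 in TLR4-/- and in 7421 in wild type. Without the 6 genes that are not classical S-phase histone genes, 11 of 24 rose in TLR4-/- and 14 of 24 in wild type. The counts move with single arrays: in TLR4-/- 7 rose without I/R array D and 7 without sham array A, and in wild type 11 rose without sham array C. In bulk RNA a change in the share of cells that express a gene and a change in RNA per cell cannot be told apart.

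Called in both genotypes were 11 members, namely H2ac4, H2ac15, H2bc1, H2bc9, H2bc14, H2bc18, H4c3, H4c4, H4c9, H4c14 and H1f5. The share of all genes called in both genotypes was not counted. H1f1, H2bc4, H2bc21 and H4c6 passed the threshold in wild type, and H2bc3 in TLR4-/-, with the test of the difference between genotypes given further on. Every I/R array was above every sham array for 18 members in TLR4-/-, where this held for 11.1% of all genes, and for 13 members in wild type, where it held for 7.78%. No member had every I/R array below every sham array, which held for 12.5% of all genes in TLR4-/- and for 7.83% in wild type. The mean over the 30 members per array was 5.85 to 6.20 in TLR4-/- I/R, 5.36 to 5.50 in TLR4-/- sham, 6.00 to 6.10 in wild-type I/R and 5.23 to 5.67 in wild-type sham arrays. TLR4-/- I/R array D was the highest of its group in 19 of 30 members, and wild-type sham array C the lowest of its group in 18 of 30. The map of the members by array shows the pattern gene by gene.

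**Figure D2:**
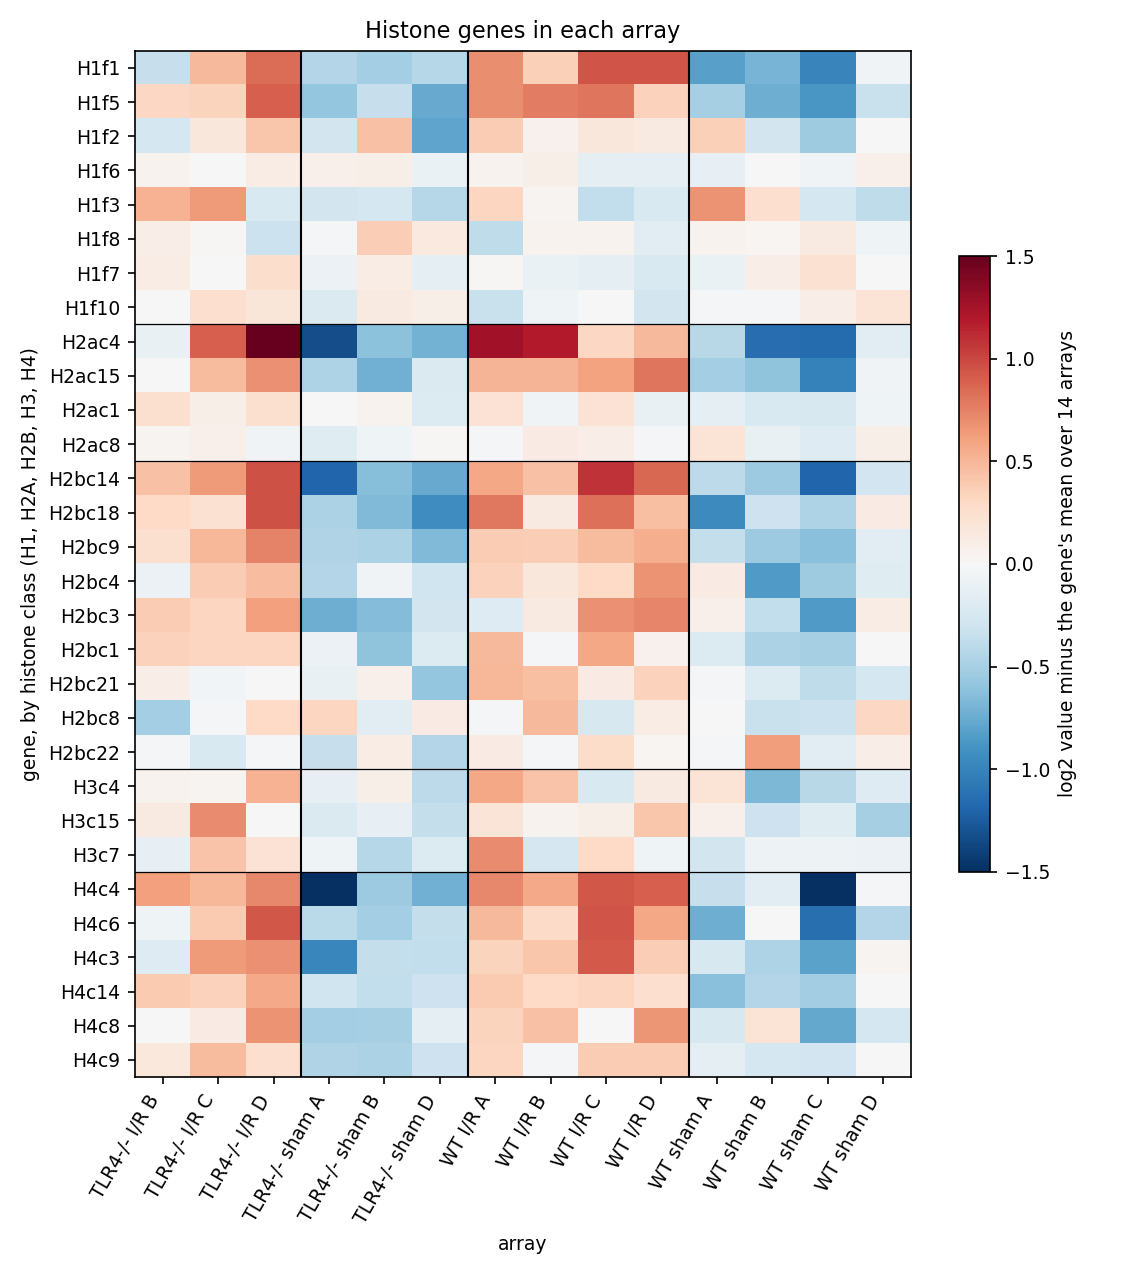
Log2 value of each of the 30 members minus that gene's mean over the 14 arrays (colour), with genes by class from top to bottom and arrays by group from left to right. In most H2B and H4 rows, and in H2ac4 and H2ac15, the I/R columns are mostly red and the sham columns mostly blue in both genotypes. H1f6, H1f7, H1f8, H1f10, H2ac1 and H2ac8 stay pale throughout.

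Among H2A genes, 2 of 4 rose in each genotype. H2A pairs with H2B in the core and carries the acidic surface that chromatin proteins bind. H2ac4 had log2 values of 3.94, 4.94 and 5.54 in TLR4-/- I/R arrays, against 2.72, 3.42 and 3.34 in TLR4-/- sham arrays. In wild type it had 5.31, 5.23, 4.36 and 4.53 in I/R arrays, against 3.63, 2.90, 2.89 and 3.87 in sham arrays. All I/R arrays lay above all sham arrays in each genotype, but the sham arrays and some I/R arrays were below the background level of 4.67, so the fold was measured against background signal. The change was 1.65 ± 0.37 (log2, SE; 3.13-fold) in TLR4-/- microglia, with an adjusted p of 0.00915, and 1.53 ± 0.32 (2.89-fold) in wild type, with an adjusted p of 0.00443. H2ac15 (formerly Hist1h2ak) read 4.71, 5.18 and 5.40 in TLR4-/- I/R arrays, against 4.24, 3.99 and 4.50 in TLR4-/- sham arrays. Wild-type I/R arrays gave 5.22, 5.22, 5.31 and 5.51, against 4.20, 4.10, 3.70 and 4.65 in wild-type sham arrays. The groups did not overlap in either genotype, and wild-type sham array C was the lowest of all 14. All 7 sham arrays were below background, so its folds too were measured against background signal. In TLR4-/- microglia I/R minus sham came to 0.85 ± 0.21 (log2, SE; 1.80-fold, adjusted p = 0.019), and in wild type to 1.15 ± 0.18 (2.22-fold, adjusted p = 0.000468). H2ac1, the testis gene and the H2A member with the highest mean, read 6.19, 6.03 and 6.19 in TLR4-/- I/R arrays, against 5.94, 6.00 and 5.74 in TLR4-/- sham arrays. The wild-type values were 6.16, 5.89, 6.16 and 5.83 after I/R, against 5.81, 5.72, 5.70 and 5.88 after sham surgery. These groups did not overlap in TLR4-/- and did in wild type, and its changes of 0.24 ± 0.12 and 0.23 ± 0.11 did not pass the test (adjusted p = 0.3 and 0.21). H2ac8 was below background in every array, with log2 changes of 0.10 in TLR4-/- and 0.04 in wild type that did not pass the test.

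H2B, the class with the most members, held the most calls, 5 of 9 in TLR4-/- and 6 of 9 in wild type. The share called was larger for H4, 4 of 6 and 5 of 6. H2bc14 (formerly Hist1h2bm) had 7.74, 7.94 and 8.26 in TLR4-/- I/R arrays, against 6.11, 6.67 and 6.55 in TLR4-/- sham arrays. For wild type the readings were 7.88, 7.75, 8.38 and 8.17 in I/R arrays, against 6.91, 6.76, 6.11 and 7.02 in sham arrays. Every I/R array was clearly above the highest sham array of its genotype. Log2 changes were 1.54 ± 0.23 (SE) in TLR4-/- microglia, which is 2.90-fold with an adjusted p of 0.000315, and 1.34 ± 0.20 in wild type, which is 2.54-fold with an adjusted p of 0.000198. H2bc18 (formerly Hist2h2bb), on chromosome 3, had 5.80, 5.73 and 6.46 in TLR4-/- I/R arrays, against 5.03, 4.84 and 4.57 in TLR4-/- sham arrays. Among wild-type arrays it read 6.29, 5.64, 6.33 and 5.95 after I/R, against 4.55, 5.19, 5.04 and 5.63 after sham surgery. The groups were apart in both genotypes, although wild-type I/R array B and wild-type sham array D differed little. Group means gave a log2 change of 1.18 ± 0.25 (SE, 2.27-fold) in TLR4-/- with an adjusted p of 0.00659, and of 0.95 ± 0.22 (1.93-fold) in wild type with an adjusted p of 0.00927. H2bc9 (formerly Hist1h2bh) read 8.02, 8.27 and 8.52 in TLR4-/- I/R arrays, against 7.33, 7.30 and 7.11 in TLR4-/- sham arrays. In wild type it had 8.16, 8.15, 8.25 and 8.33 in I/R arrays, against 7.42, 7.23, 7.15 and 7.62 in sham arrays. Arrays of a group lay close together, and I/R and sham arrays were apart in both genotypes. The change was 1.02 ± 0.15 (log2, SE; 2.03-fold) in TLR4-/- microglia, with an adjusted p of 0.000218, and 0.87 ± 0.13 (1.82-fold) in wild type, with an adjusted p of 0.00019.

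For H2bc3 and H2bc1 the wild-type groups overlapped while the TLR4-/- groups did not. H2bc3 had log2 values of 5.80, 5.74 and 6.03 in TLR4-/- I/R arrays, against 4.68, 4.77 and 5.14 in TLR4-/- sham arrays. Wild-type I/R arrays gave 5.22, 5.55, 6.11 and 6.15, against 5.49, 5.05, 4.57 and 5.53 in wild-type sham arrays. Wild-type I/R array A was below wild-type sham arrays A and D. In TLR4-/- microglia I/R minus sham came to 0.99 ± 0.26 (log2, SE; 1.99-fold, adjusted p = 0.0231), and in wild type to 0.60 ± 0.22 (1.51-fold, adjusted p = 0.107). H2bc1 (formerly Hist1h2ba), a testis gene, read 4.34, 4.32 and 4.32 in TLR4-/- I/R arrays, against 3.92, 3.40 and 3.80 in TLR4-/- sham arrays. The wild-type values were 4.49, 3.98, 4.59 and 4.06 after I/R, against 3.80, 3.53, 3.51 and 3.99 after sham surgery. All arrays were below background, and sham array D overlapped the I/R arrays in wild type. Log2 changes were 0.62 ± 0.18 (SE) in TLR4-/- microglia, which is 1.54-fold with an adjusted p of 0.0433, and 0.57 ± 0.16 in wild type, which is 1.49-fold with an adjusted p of 0.0272. Its call was lost on leaving out any 1 of the 6 arrays in TLR4-/-, and any 1 of 4 of the 8 arrays in wild type.

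H2bc4 and H2bc21, copies known in human cells to be made also as polyadenylated RNA outside S phase, passed the test in wild type. H2bc4 (formerly Hist1h2bc), the H2B member with the highest mean, had 8.41, 8.88 and 8.96 in TLR4-/- I/R arrays, against 8.05, 8.44 and 8.20 in TLR4-/- sham arrays. For wild type the readings were 8.84, 8.66, 8.79 and 9.17 in I/R arrays, against 8.62, 7.64, 7.96 and 8.31 in sham arrays. TLR4-/- sham array B was just above I/R array B, while the wild-type groups were narrowly apart. Group means gave a log2 change of 0.52 ± 0.22 (SE, 1.44-fold) in TLR4-/- with an adjusted p of 0.177, and of 0.73 ± 0.19 (1.66-fold) in wild type with an adjusted p of 0.0186. H2bc21 (formerly Hist2h2be) read 7.85, 7.71 and 7.74 in TLR4-/- I/R arrays, against 7.63, 7.82 and 7.17 in TLR4-/- sham arrays. Among wild-type arrays it read 8.25, 8.19, 7.87 and 8.09 after I/R, against 7.73, 7.55, 7.36 and 7.48 after sham surgery. TLR4-/- sham array B reached the I/R arrays, and the wild-type groups were apart. The change was 0.22 ± 0.16 (log2, SE; 1.17-fold) in TLR4-/- microglia, with an adjusted p of 0.482, and 0.57 ± 0.14 (1.49-fold) in wild type, with an adjusted p of 0.0118. H2bc8 (-0.18 in TLR4-/- and 0.17 in wild type, log2 change) and H2bc22 (0.14 and -0.03) did not pass the test.

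H4 genes, which encode the most conserved of the core histones, had positive changes in 6 of 6 members in both genotypes, and 4 in TLR4-/- and 5 in wild type rose. H4c4 (formerly Hist1h4d), the H4 member with the highest mean, had 9.09, 8.97 and 9.19 in TLR4-/- I/R arrays, against 6.91, 7.92 and 7.75 in TLR4-/- sham arrays. In wild type it had 9.19, 9.04, 9.40 and 9.36 in I/R arrays, against 8.12, 8.30, 6.90 and 8.44 in sham arrays. The I/R arrays of both genotypes lay close together, while TLR4-/- sham array A and wild-type sham array C lay well below the other sham arrays. In TLR4-/- microglia I/R minus sham came to 1.55 ± 0.31 (log2, SE; 2.94-fold, adjusted p = 0.00458), and in wild type to 1.31 ± 0.27 (2.47-fold, adjusted p = 0.00456). H4c14 (formerly Hist2h4), on chromosome 3, had 7.89, 7.85 and 8.07 in TLR4-/- I/R arrays, against 7.20, 7.13 and 7.19 in TLR4-/- sham arrays. Wild-type I/R arrays gave 7.89, 7.80, 7.82 and 7.75, against 6.87, 7.06, 6.98 and 7.51 in wild-type sham arrays. Every I/R array was above every sham array. Log2 changes were 0.77 ± 0.14 (SE) in TLR4-/- microglia, which is 1.70-fold with an adjusted p of 0.00211, and 0.71 ± 0.12 in wild type, which is 1.64-fold with an adjusted p of 0.000914. H4c3 had log2 values of 6.13, 6.96 and 7.01 in TLR4-/- I/R arrays, against 5.35, 5.97 and 5.95 in TLR4-/- sham arrays. The wild-type values were 6.66, 6.75, 7.24 and 6.70 after I/R, against 6.08, 5.86, 5.53 and 6.37 after sham surgery. I/R and sham arrays were apart in both genotypes, with TLR4-/- I/R array B nearest to the sham arrays. Group means gave a log2 change of 0.94 ± 0.25 (SE, 1.92-fold) in TLR4-/- with an adjusted p of 0.0286, and of 0.88 ± 0.22 (1.84-fold) in wild type with an adjusted p of 0.016.

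H4c6 had log2 values of 4.48, 4.94 and 5.48 in TLR4-/- I/R arrays, against 4.15, 4.04 and 4.19 in TLR4-/- sham arrays. For wild type the readings were 5.03, 4.84, 5.49 and 5.13 in I/R arrays, against 3.81, 4.54, 3.42 and 4.11 in sham arrays. Its mean over all arrays and all 7 sham arrays were below background, and every I/R array was above every sham array of its genotype. The change was 0.84 ± 0.26 (log2, SE; 1.79-fold) in TLR4-/- microglia, with an adjusted p of 0.0559, and 1.15 ± 0.22 (2.23-fold) in wild type, with an adjusted p of 0.00263. H4c9 (formerly Hist1h4i) read 4.90, 5.22 and 4.99 in TLR4-/- I/R arrays, against 4.28, 4.26 and 4.42 in TLR4-/- sham arrays. Among wild-type arrays it read 5.06, 4.70, 5.11 and 5.11 after I/R, against 4.59, 4.47, 4.44 and 4.73 after sham surgery. In wild type, I/R array B lay just under sham array D, and in TLR4-/- the groups were apart. All 3 TLR4-/- sham arrays and 3 of 4 wild-type sham arrays were below background. In TLR4-/- microglia I/R minus sham came to 0.71 ± 0.14 (log2, SE; 1.64-fold, adjusted p = 0.00298), and in wild type to 0.44 ± 0.12 (1.35-fold, adjusted p = 0.026). H4c8 had log2 changes of 0.65 ± 0.23 (SE) in TLR4-/- and 0.63 ± 0.20 in wild type, which did not pass the test (adjusted p = 0.101 and 0.0569).

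None of the 3 H3 members measured by a row of their own was called in either genotype. H3 carries much of the lysine methylation that marks active and silent chromatin. H3c4 (formerly Hist1h3d), the H3 member with the highest mean, had 5.69, 5.68 and 6.16 in TLR4-/- I/R arrays, against 5.51, 5.73 and 5.25 in TLR4-/- sham arrays. In wild type it had 6.22, 6.08, 5.41 and 5.77 in I/R arrays, against 5.84, 4.97, 5.23 and 5.45 in sham arrays. The groups overlapped in both genotypes. Log2 changes were 0.35 ± 0.23 (SE) in TLR4-/- microglia, which is 1.27-fold with an adjusted p of 0.445, and 0.50 ± 0.20 in wild type, which is 1.41-fold with an adjusted p of 0.136. H3c15 (0.51 in TLR4-/- and 0.42 in wild type, log2 change) and H3c7 (0.40 and 0.30) had means below background.

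Of the linker histones, 1 of 8 rose in TLR4-/- and 2 of 8 in wild type. The 8 include H1f6, H1f7, H1f8 and H1f10, which are not classical S-phase histone genes and were not called. H1f6 and H1f8 were below background in every array. H1f5 (formerly Hist1h1b), a linker gene typical of dividing cells, had 6.38, 6.41 and 6.97 in TLR4-/- I/R arrays, against 5.50, 5.73 and 5.32 in TLR4-/- sham arrays. Wild-type I/R arrays gave 6.77, 6.84, 6.88 and 6.42, against 5.58, 5.34, 5.20 and 5.74 in wild-type sham arrays. The groups were apart in both genotypes. Group means gave a log2 change of 1.07 ± 0.18 (SE, 2.10-fold) in TLR4-/- with an adjusted p of 0.0012, and of 1.27 ± 0.16 (2.40-fold) in wild type with an adjusted p of 3.73e-05. H1f1 (formerly Hist1h1a) read 6.44, 7.27 and 7.63 in TLR4-/- I/R arrays, against 6.35, 6.28 and 6.36 in TLR4-/- sham arrays. The wild-type values were 7.48, 7.14, 7.73 and 7.73 after I/R, against 5.97, 6.09, 5.79 and 6.73 after sham surgery. TLR4-/- I/R array B lay just above the TLR4-/- sham arrays and arrays C and D well above them, while the wild-type groups were clearly apart. The change was 0.78 ± 0.26 (log2, SE; 1.72-fold) in TLR4-/- microglia, with an adjusted p of 0.0843, and 1.38 ± 0.23 (2.60-fold) in wild type, with an adjusted p of 0.000671. H1f2 (formerly Hist1h1c), the linker gene with the highest mean, had 8.61, 9.04 and 9.29 in TLR4-/- I/R arrays, against 8.60, 9.31 and 8.08 in TLR4-/- sham arrays. For wild type the readings were 9.25, 8.94, 9.04 and 9.01 in I/R arrays, against 9.23, 8.60, 8.34 and 8.87 in sham arrays. I/R and sham arrays overlapped in both genotypes. In TLR4-/- microglia I/R minus sham came to 0.32 ± 0.26 (log2, SE; 1.25-fold, adjusted p = 0.573), and in wild type to 0.30 ± 0.23 (1.23-fold, adjusted p = 0.479).

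H1f10, H1f6, H1f7 and H1f8 had changes between -0.23 and 0.16 in TLR4-/- and between -0.23 and -0.01 in wild type, and none passed the test. In all, 14 members were called in neither genotype, 9 of them above background, with log2 changes of -0.23 to 0.65 in TLR4-/- and -0.23 to 0.63 in wild type. The plots of 6 members by array set called and uncalled genes side by side, and the plot of changes gives all 30.

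**Figure D3:**
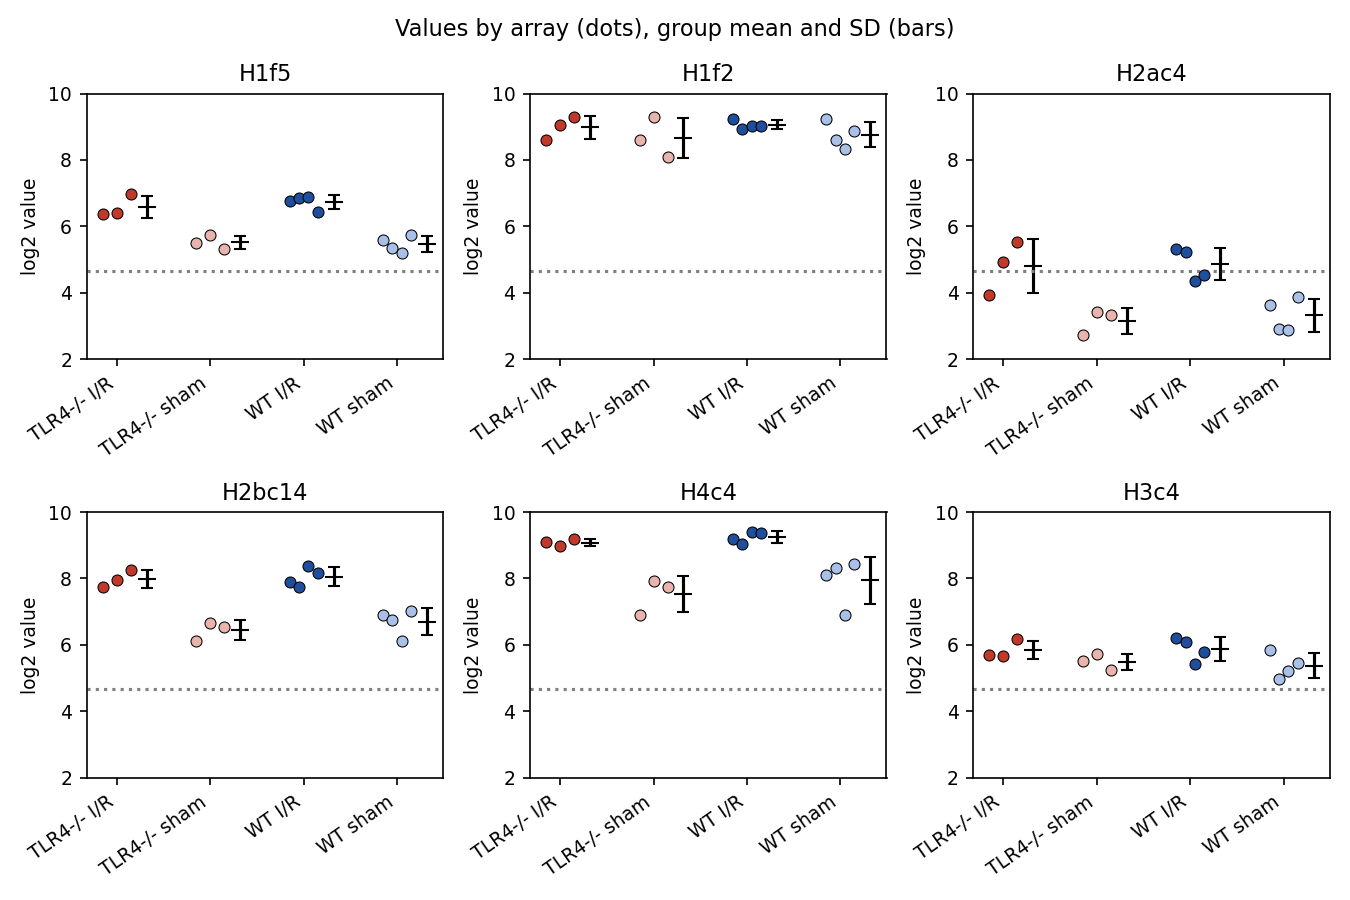
Log2 value per array (dots) with the group mean and SD (bars, n = 3 for TLR4-/- groups and n = 4 for wild-type groups) for H1f5, H1f2, H2ac4, H2bc14, H4c4 and H3c4, with the background level of 4.67 as a dotted line. I/R arrays lie above sham arrays in H1f5, H2ac4, H2bc14 and H4c4, and overlap them in H1f2 and H3c4.

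**Figure D4:**
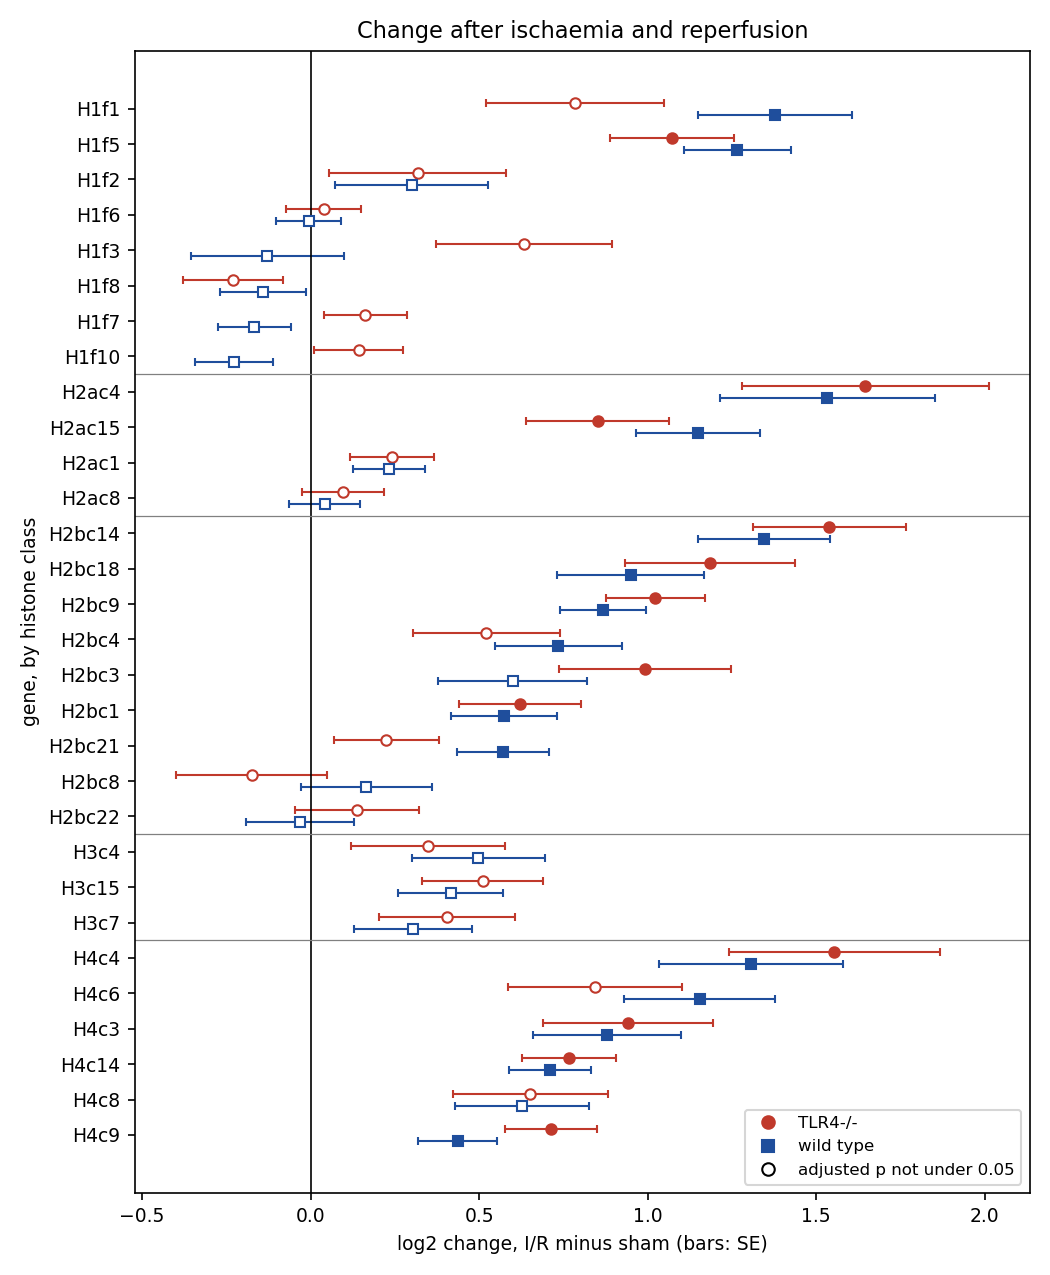
Log2 change, I/R minus sham, of each member in TLR4-/- (circles) and wild type (squares), with bars for the SE and open symbols where the adjusted p was not under 0.05. Most H2A, H2B and H4 genes and all 3 H3 genes lie to the right of 0 in both genotypes. Among H1 genes, H1f5 and H1f1 lie furthest to the right, and H1f6, H1f7, H1f8 and H1f10 lie near 0.

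Nearly all rows that name several histone genes rose after I/R in both genotypes. They numbered 26, of which 2 repeat the values of another row. Most name near-identical copies of a class, such as the 12 symbols in each of the 10 H3 rows, and the 2 H2A rows also list H2ax and H3c4. In a test over all 35556 rows, 24 of 26 rose in TLR4-/- (background 3% higher, 1.58% lower) and 25 of 26 in wild type (background 3.57% higher, 1.8% lower), and none was called lower. Without TLR4-/- sham array A, 18 of 26 rose in TLR4-/-. The median log2 change was 1.33 in TLR4-/- and 1.43 in wild type. Many of these rows list members among their symbols and list the same genes as each other, so they are not independent of the members or of each other.

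By class, all 10 H3 rows rose in both genotypes. Their mean per array was 7.40 to 7.84 in TLR4-/- I/R, 6.11 to 6.39 in TLR4-/- sham, 7.78 to 7.98 in wild-type I/R and 6.24 to 6.63 in wild-type sham arrays. The I/R and sham ranges did not meet in either genotype, and the median change was 1.28 in TLR4-/- and 1.47 in wild type. The 7 H2B rows had a median change of 1.61 in TLR4-/- and 1.52 in wild type, and the 6 H4 rows 1.41 and 1.39, with all called. The H4 row of H4c17 and H4c11 read 3.08 to 4.59, below background in every array. Means of the other 25 of the 26 rows were above background. The 2 H2A rows had medians of 0.90 and 0.86, with 1 called in TLR4-/- and 2 in wild type. The row of H2bc6 and H1f4, 2 genes of different classes, had a log2 change of 0.16 ± 0.20 (SE) in TLR4-/- and 0.17 ± 0.17 in wild type (adjusted p = 0.757 and 0.663).

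**Figure D5:**
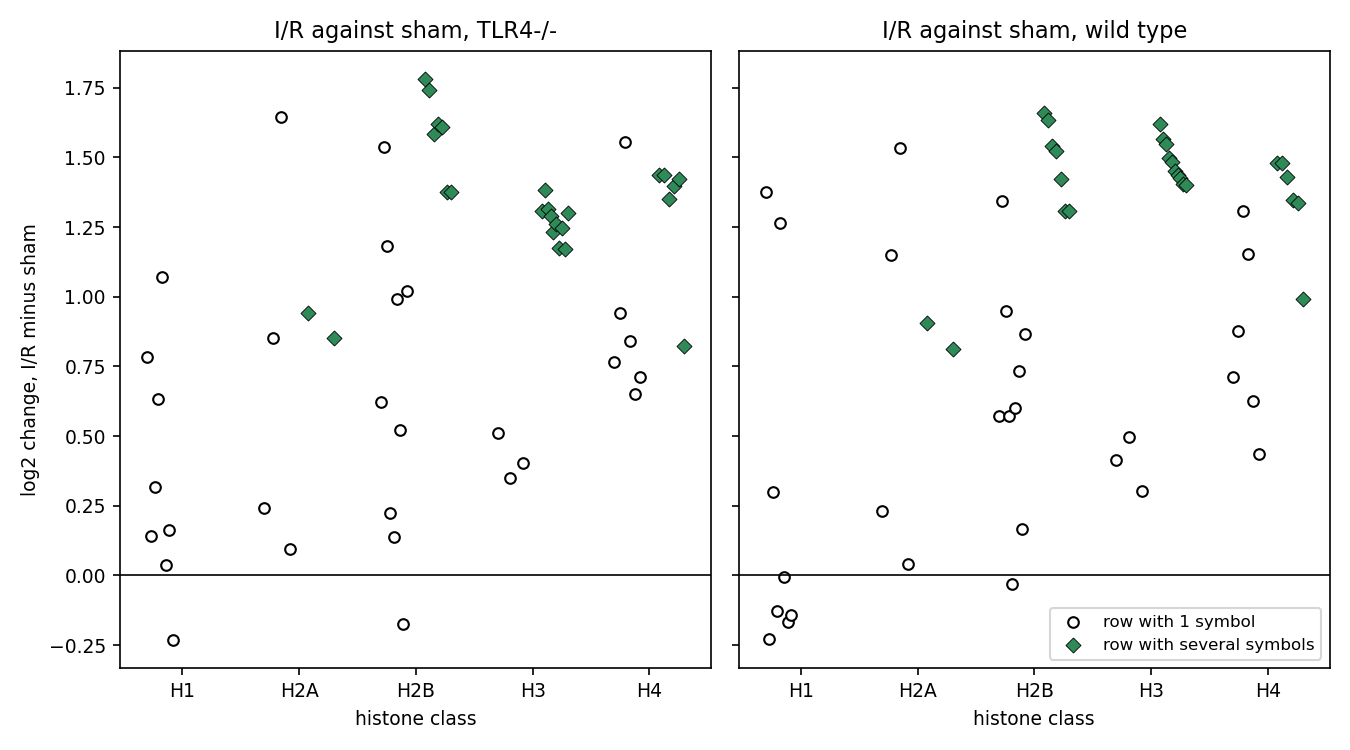
Log2 change, I/R minus sham, in TLR4-/- (left) and wild type (right), for rows with 1 histone symbol (open circles) and rows with several symbols of a class (diamonds), by class. H3 rows with several symbols lie at 1.17 to 1.38 in TLR4-/- and 1.40 to 1.62 in wild type, above all 3 H3 rows with 1 symbol.

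Neither the I/R change nor the level of any member was shown to differ by genotype. The test of the difference, TLR4-/- change minus wild-type change, called 0 of 30 members and 0% of all genes, and 1 member had an unadjusted limma p under 0.05, which held for 3.82% of all genes. That member was H1f3, named after its values were seen, with I/R changes of 0.63 ± 0.26 (log2, SE) in TLR4-/- and -0.13 ± 0.23 in wild type that did not pass the test. Its difference was 0.76 (95% interval 0.03 to 1.50, adjusted p = 0.9998). At the other end, H1f1 had a difference of -0.59 (95% interval -1.33 to 0.15), with 21 members above 0 and 9 below. Of all 19938 genes, 10647 had a difference above 0 and 9291 below. The 95% interval of a member reached 0.58 to either side in the median, and 0.31 to 1.03 over the 30, with no adjustment for the number of genes.

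After I/R, TLR4-/- against wild type called 0 of 30 members (limma), where 0.01% of all genes were called higher, 0.01% lower and 0.0201% in all. The log2 differences ran from -0.41 to 0.37, and 2 of 30 members had an unadjusted p under 0.05, against 8.47% of all genes, namely H1f10 (0.31, adjusted p = 0.556) and H2bc21 (-0.33, adjusted p = 0.569), both named after their values were seen. H2bc21 had every TLR4-/- array below every wild-type array, which held for 3.2% of all genes, and no member had every array above, which held for 6.13%. After sham surgery 0 of 30 were called (0% of all genes higher, 0.00502% lower) and 0 had an unadjusted limma p under 0.05, which held for 5.24% of all genes, with differences from -0.41 to 0.19 and a smallest adjusted p of 0.920. H4c9 was below in every TLR4-/- sham array (1.85% of all genes), and no member was above (3.65% of all genes). Among the rows with several symbols, the test over all rows called 0 in these 3 comparisons, where it called 0% of rows for the difference, 0.00281% higher after I/R and 0.00562% lower after sham.

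Lists of genes that serve histones moved unevenly. Of 17 measured genes of histone mRNA transcription and 3' processing, 2 rose in TLR4-/- and 0 in wild type, and none fell. Among all genes 5.04% were called higher in TLR4-/- and 6.15% in wild type, so these counts lie near the share of all genes. The same shares, with 3.13% and 3.63% called lower, stand beside the counts of the lists and markers below. The smallest p in wild type was that of Nelfe, a subunit of the negative elongation factor, with a log2 change of 0.45 ± 0.17 (SE) in TLR4-/- and 0.42 ± 0.14 in wild type (adjusted p = 0.114 and 0.0766). Slbp, the stem-loop binding protein, had a log2 change of 0.35 ± 0.16 (SE) in TLR4-/- and 0.34 ± 0.14 in wild type (adjusted p = 0.228 and 0.145). The log2 change of Npat was 0.12 ± 0.17 and 0.30 ± 0.15 (adjusted p = 0.769 and 0.246). The genes that rose in TLR4-/- were Eri1, the exonuclease that trims the histone mRNA end (1.64-fold, adjusted p = 0.0272), and Cstf2, a cleavage factor named after its value was seen (1.40-fold, adjusted p = 0.048). In wild type the ratio of I/R to sham was 1.20 for Eri1 (adjusted p = 0.359) and 1.02 for Cstf2 (adjusted p = 0.93). Cpsf2, of the cleavage complex, and Hinfp, a transcription factor of H4 genes, had log2 changes of 0.09 ± 0.13 and -0.37 ± 0.18 (SE) in TLR4-/- and of 0.18 ± 0.11 and 0.22 ± 0.15 in wild type, without passing the test.

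Histone chaperones, which carry new histones to DNA, rose in 8 of 19 measured genes in each genotype and fell in none. They included the subunits of the replication-coupled assembly factor, Chaf1a (2.02-fold in TLR4-/- and 3.49-fold in wild type) and Chaf1b (3.08-fold in TLR4-/- and 3.95-fold in wild type), and Asf1b (3.58-fold in TLR4-/- and 3.71-fold in wild type). The H3-H4 chaperone Nasp (2.15-fold in TLR4-/- and 2.53-fold in wild type) rose too, as did Dnajc9 (2.46-fold in TLR4-/- and 2.51-fold in wild type) and Mms22l (1.58-fold in TLR4-/- and 2.26-fold in wild type). Asf1a and Hira, which also serve deposition outside S phase, had log2 changes of -0.17 ± 0.16 and -0.03 ± 0.12 (SE) in TLR4-/- and of -0.02 ± 0.14 and -0.10 ± 0.10 in wild type, without passing the test. These 2 were named after their values were seen.

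A list of histone variants was taken beside the members, and 5 of its 9 measured genes rose in each genotype. The centromeric variant Cenpa rose 4.21-fold in TLR4-/- (adjusted p = 1.04e-06) and 4.41-fold in wild type (adjusted p = 5.93e-08). H2ax (2.53-fold in TLR4-/- and 2.8-fold in wild type), the variant phosphorylated at DNA breaks, H2az1 (1.81-fold in TLR4-/- and 1.55-fold in wild type) and H2az2 (1.59-fold in TLR4-/- and 1.72-fold in wild type) rose in both. The change of Macroh2a1 (1.45-fold in TLR4-/- and 1.57-fold in wild type) passed the test in wild type and that of H2aj (1.89-fold in TLR4-/- and 1.28-fold in wild type) in TLR4-/-. H3f3a, the replacement H3, named after its values were seen, had a log2 change of -0.07 ± 0.14 in TLR4-/- and 0.18 ± 0.12 in wild type (adjusted p = 0.862 and 0.427). H1f10 is on this list and is also a member.

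S-phase genes, which copy DNA and supply its building blocks, rose in 26 of 29 measured genes in TLR4-/- and 25 of 29 in wild type, and none fell. Their median log2 change was 1.36 in TLR4-/- and 1.48 in wild type. It was 0.63 and 0.57 for the histone members, and 1.33 and 1.43 for the rows with several histone symbols. Without the members that are not classical S-phase histone genes, the member medians were 0.74 and 0.67. The sets differ in signal, as all 29 S-phase genes had a mean above background, against 22 of the 30 members. Examples were the cyclins Ccna2 (12.6-fold in TLR4-/- and 13.2-fold in wild type) and Ccne2 (4.2-fold in TLR4-/- and 4.68-fold in wild type), Rrm2 (6.67-fold in TLR4-/- and 10.5-fold in wild type), a subunit of ribonucleotide reductase, and the primase subunit Prim1 (7.3-fold in TLR4-/- and 8.06-fold in wild type). The helicase subunits Mcm6 (4.8-fold in TLR4-/- and 3.72-fold in wild type) and Gins2 (3.42-fold in TLR4-/- and 3.55-fold in wild type) rose as well. The mean of the list per array was 7.08 to 7.23 in TLR4-/- I/R, 5.64 to 5.85 in TLR4-/- sham, 7.21 to 7.47 in wild-type I/R and 5.63 to 5.94 in wild-type sham arrays. Neither genotype comparison nor the difference of changes called a gene of these 4 lists.

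Markers of monocytes moved with I/R as well. Of the 11 on the list 9 were measured, and 6 rose in TLR4-/- and 7 in wild type. Their mean per array was 6.54 to 6.61 in TLR4-/- I/R, 4.46 to 4.63 in TLR4-/- sham, 6.62 to 7.15 in wild-type I/R and 4.63 to 4.85 in wild-type sham arrays. Those that rose in both were Fn1 (42.3-fold in TLR4-/- and 46.4-fold in wild type), Vim (7.53-fold in TLR4-/- and 9.18-fold in wild type), Plac8 (11.4-fold in TLR4-/- and 6-fold in wild type), Ms4a4c (7.43-fold in TLR4-/- and 6.33-fold in wild type), Cd44 (2.56-fold in TLR4-/- and 3.01-fold in wild type) and S100a4 (2.8-fold in TLR4-/- and 2.4-fold in wild type). Chil3 rose in wild type (2.27-fold, adjusted p = 0.0249) and had a ratio of 1.81 in TLR4-/- (adjusted p = 0.191), with all group means below background. Vcan was below background as well and was not called, and Ccr2 averaged 5.55 in TLR4-/- I/R and 5.77 in TLR4-/- sham arrays, and 6.34 in wild-type I/R and 5.94 in wild-type sham arrays, where it was not called in either genotype. Microglia markers fell in 6 of 11 in TLR4-/- and 8 of 11 in wild type. Neutrophil markers averaged 3.67 to 3.91 in TLR4-/- I/R and 3.80 to 3.98 in TLR4-/- sham arrays. In wild type they averaged 3.55 to 4.52 in I/R and 3.72 to 3.92 in sham arrays. These averages were below background, with 0 markers called in TLR4-/- and 1 higher in wild type. Wild-type I/R array C read 7.06 for S100a9, 4.94 for S100a8 and 4.75 for Ngp, above background. The other wild-type I/R arrays read 3.78 to 4.22, 2.95 to 3.33 and 2.92 to 3.68 for them. In array C Mpo read 4.83, against 4.57 to 4.83 in the others, and the rest of the list was below background. Of the markers of T and NK cells, B cells and neurons 0 were called in either genotype. In TLR4-/- 1 astrocyte and 1 endothelial or pericyte marker were lower, and 0 of border-associated macrophages or the oligodendrocyte lineage were called. In wild type 1 marker each of border-associated macrophages and the oligodendrocyte lineage was higher, 1 astrocyte marker was lower, and of the endothelial and pericyte markers 2 were higher and 1 lower. The part of these markers' cells in the histone changes was not tested.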

How the data were processed

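RNA of sorted microglia was hybridised, 1 sample per array, to Affymetrix Mouse Gene 1.0 ST arrays. The deposited table holds log2 values. RMA and oligo are named in the submitters' processing notes; RMA corrects background, equalises the arrays and combines the probes of each row. No versions, and no priming method for RNA without a poly(A) tail, are given in the sources used here. No further normalization was applied, array medians over genes were 5.27 to 5.36, and precision is limited by how many arrays there were.

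Of 35556 rows, 21789 carried 1 symbol in the platform annotation, 1621 several and 12146 none. The row with the highest mean stood for a gene, which left 19938 genes, and each of the 30 members had 1 row. All 14 arrays entered a model with a mean for each of the 4 groups (limma 3.58.1, R 4.3.3), which was checked on simulated data, with Benjamini-Hochberg adjustment over all genes and a threshold of 0.05. Rows with several symbols were tested with adjustment over all rows. All 30 members matched a RefSeq table of GRCm38.p6 and 26 had a promoter entry there. Values in every array are given for members called in either I/R comparison and for the highest-mean member of each class, and Slbp, Npat and up to 6 genes with the smallest p in wild type were named from each list of histone-related and S-phase genes, with the exceptions stated. The members, gene lists and tests were chosen with earlier results of these data known. Alternatives were the samples in the fit, a trended robust variance, array weights, 2 scalings, a filter on dim genes, averaging rows, a replicate block and leaving out each array. After the data were seen, a fit without 2 arrays and one over all rows were added.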

Additional observations from a re-analysis of the deposited data

Results flagged for a closer look

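In 3 of the 60 groups of 4 arrays (5%), 1 array lay far from the other 3 of its group by Dixon's test at the 95% level, which chance alone does in about 5% of groups. For H4c3, wild-type I/R array C read 7.24, while the other wild-type I/R arrays read 6.66 to 6.75. For H4c9, wild-type I/R array B read 4.70 and the others of its group 5.06 to 5.11. For H3c7, wild-type sham array A read 2.12 and the others of its group 2.30 to 2.32, all below the background level of 4.67.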

How the results depend on the processing

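The count of members called higher after I/R ranged from 7 to 13 in TLR4-/- when 1 array was left out, against 12 with all arrays, and from 11 to 17 in wild type, against 15. In TLR4-/- the lowest count, 7, came without I/R array D and again without sham array A. In wild type, 11 came without sham array C and 17 without sham array A. Under the other settings the count was 8 to 14 in TLR4-/- and 11 to 16 in wild type, with the lowest 8 from adjustment over all rows and the lowest 11 from the fit without wild-type sham array C and TLR4-/- I/R array D. That fit also gave 11 in TLR4-/-. With the replicate letter as a replicate block, 13 rose in TLR4-/- and 16 in wild type. Deviations from the group means correlated at r -0.10 to 0.28 (median 0.041) over 18 pairs of arrays with the same letter. Over 55 pairs with different letters r was -0.26 to 0.24 (median -0.005). The ranges overlap, and such correlations cannot exclude that the letters pair samples. No setting called a member lower, or called a member in the genotype comparisons or the difference of changes. Rows with several symbols called higher numbered 18 to 25 in TLR4-/- and 23 to 25 in wild type. Of 906 values of named members under the alternatives, 848 kept their direction and side of the threshold, 49 lost a call, 9 gained one and 0 reversed. H2ac4, H4c6 and H2bc1 lay below the filter on dim genes and were not tested under it. The calls lost most often were those of H2bc1, H4c3, H4c9, H2bc3, H2bc4 and H2ac15. Members whose sham arrays were below background have folds measured against background signal, and near-identical copies can share probes.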
